A study of Mus musculus with 24 samples.

Results

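Chromatin accessibility in pre-pro-B cells that lacked Mki67 was compared with that in wild-type pre-pro-B cells of mouse bone marrow. The comparison used the 8 of 24 libraries of the series that are labelled as pre-pro-B, 4 from Mki67-/- mice and 4 from WT mice. Accessibility was measured by ATAC-seq, in which a transposase cuts and tags open DNA. Each library came with its own list of peaks on mm10. The other 16 libraries are pro-B and small pre-B cells of the same genotypes, and they are used only to see whether a pre-pro-B difference was present at another stage. Strain, age, the structure of the Mki67 allele, the gates of the cell sort and any pooling of animals are not given in the labels. Whether the 4 libraries of a genotype came from separate mice is also not given, and the spread behind each p-value is that of libraries. The study's title concerns Ki-67, accessibility and the rearrangement of antigen receptor genes.

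Mki67 encodes Ki-67, a large protein of dividing cells that coats mitotic chromosomes, keeps them apart from each other and helps to place heterochromatin around nucleoli after division. Its use as a marker of proliferation rests on its loss from resting cells. Pre-pro-B cells are the earliest progenitors of the B lineage that are commonly sorted from marrow. They still carry open chromatin at genes of multipotent progenitors and of T, NK and dendritic cells, and they precede the pro-B stage at which Ebf1 and Pax5 fix B-cell identity and the heavy-chain locus is joined.

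Regions where the genotypes separated over an annotated gene start are shown first, since they are the ones whose sequence and gene are both known here. Joining peaks that overlapped across the 8 libraries gave 106045 union regions. Relative peak strength, described further on, differed between genotypes at 23 regions, and 2 of these lay over a promoter listed by RefSeq, those of Adgrg5 and Srp54c. Of 39 regions with a peak in all 4 Mki67-/- and in no WT library, 3 lay over a listed promoter, those of H4c18, Sit1 and Pvrig. Of 227 regions with the opposite pattern, 11 did, and the one at Ptpre is shown because it lies close to Mki67 itself. Within 1 kb of a start, or of a gene end where no start was listed, lay 3 of the 23. The share of all regions tested for strength was 23.5%. No such share was counted for regions that varied in presence, so these promoter counts are given without one. The promoters run from 250 bases before to 50 bases after the start on GRCm38.p6, written 5′ to 3′ on the gene's strand. Capitals mark matches to 4 motifs of B-lineage factors, searched on both strands: CAGCTG of E proteins, TGTGGT of Runx factors, CCGGAAGT of ETS factors and the palindromic motif of Ebf1.
Adgrg5, chr8:94923444-94923743, + strand: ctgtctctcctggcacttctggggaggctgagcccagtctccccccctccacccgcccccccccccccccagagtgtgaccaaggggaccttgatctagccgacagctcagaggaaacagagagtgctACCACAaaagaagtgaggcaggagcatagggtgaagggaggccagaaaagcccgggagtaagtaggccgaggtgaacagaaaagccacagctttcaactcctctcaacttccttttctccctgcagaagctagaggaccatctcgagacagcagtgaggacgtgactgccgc
Srp54c, chr12:55230127-55230426, + strand: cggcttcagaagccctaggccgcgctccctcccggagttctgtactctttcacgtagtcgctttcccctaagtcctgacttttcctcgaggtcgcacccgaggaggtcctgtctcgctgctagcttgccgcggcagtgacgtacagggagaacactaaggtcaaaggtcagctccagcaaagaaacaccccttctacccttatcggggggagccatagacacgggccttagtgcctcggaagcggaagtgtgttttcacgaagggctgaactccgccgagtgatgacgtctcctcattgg
Sit1, chr4:43483660-43483959, - strand: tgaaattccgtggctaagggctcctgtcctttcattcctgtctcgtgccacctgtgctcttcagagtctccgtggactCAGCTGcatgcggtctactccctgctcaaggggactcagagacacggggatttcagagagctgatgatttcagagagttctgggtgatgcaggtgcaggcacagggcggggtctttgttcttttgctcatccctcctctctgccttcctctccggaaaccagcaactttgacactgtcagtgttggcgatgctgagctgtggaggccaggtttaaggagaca
Ptpre, chr7:135593231-135593530, + strand: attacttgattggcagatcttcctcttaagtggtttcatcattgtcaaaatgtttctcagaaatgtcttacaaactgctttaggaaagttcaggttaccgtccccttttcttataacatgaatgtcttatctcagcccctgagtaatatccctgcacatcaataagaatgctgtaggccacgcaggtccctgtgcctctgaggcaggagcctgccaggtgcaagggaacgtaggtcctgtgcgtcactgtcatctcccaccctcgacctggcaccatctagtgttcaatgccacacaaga
The Adgrg5 promoter held a TGTGGT match on the opposite strand that began at position -122 from the start. The Sit1 promoter held a CAGCTG match at position -172, and the other 2 held none of the 4 motifs. Among 32851 listed promoters, 16.8% held TGTGGT, 16.3% CAGCTG, 3.89% CCGGAAGT and 0.904% the Ebf1 motif. These matches describe letters in the window and do not locate a bound factor.

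The libraries differed in depth, and 2 of them stood apart. Merged peaks numbered 79703, 87169, 87225 and 67920 in Mki67-/- libraries and 87543, 77175, 85063 and 88946 in WT libraries. The groups overlapped, at 80504 ± 9103 in Mki67-/- and 84682 ± 5256 in WT libraries (SD, n = 4 each, exact permutation p = 0.571, adjusted over 6 measures of the library 0.686). A background coverage recovered from the peak scores, which stands for depth, was 3.38, 4.17, 3.61 and 1.86 in Mki67-/- and 5.08, 2.52, 4.26 and 5.30 in WT libraries. Mki67-/- replicate 4 and WT replicate 2 had the lowest coverage of their genotypes. The median peak width was 480, 490, 437 and 419 bp in Mki67-/- and 550, 446, 543 and 552 bp in WT libraries, so that 3 of 4 WT libraries had wider peaks than any Mki67-/- library (exact permutation p = 0.0857, adjusted p = 0.514). The share of the 40000 strongest peaks within 1 kb of a gene end averaged 28.1 ± 0.258% in Mki67-/- and 28.3 ± 0.287% in WT libraries (SD, n = 4 each), and the shares in gene bodies and between genes did not pass either. Since the lists differed in length, each comparison was made on the deposited lists and again on the 40000 peaks of highest -log10 q in each library. The last of these peaks had a -log10 q between 14.7 and 43.8. Peaks on chromosome Y numbered 21, 25, 48 and 41 in Mki67-/- and 25, 21, 63 and 56 in WT libraries. Both genotypes thus held 2 low libraries, replicates 1 and 2, and 2 high ones, replicates 3 and 4.

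Marker genes were compared between genotypes and stages. Markers of the pre-pro-B stage such as Flt3, a cytokine receptor of early progenitors, together held 26, 26, 25 and 28 of the 40000 strongest peaks in Mki67-/- and 27, 27, 26 and 27 in WT libraries. They held about as many at the later stages, with means of 23.5 in Mki67-/- and 23.5 in WT pro-B libraries and 26.8 in Mki67-/- and 25.5 in WT small pre-B libraries, so their sum on these lists does not tell the stages apart. On the deposited lists, which differ in length, their sum averaged 50.75 in pre-pro-B libraries of each genotype. The means there were 38.0 in Mki67-/- and 39.25 in WT pro-B libraries, and 39.5 in Mki67-/- and 40.5 in WT small pre-B libraries. Flt3 alone held 9, 10, 9 and 9 peaks in Mki67-/- and 10, 10, 10 and 9 in WT libraries. The 5 markers of the pro-B stage and later, Ebf1 and Pax5 among them, held 12 to 19 peaks in Mki67-/- and 15 to 19 in WT pre-pro-B libraries, against means of 45.5 in Mki67-/- and 46.8 in WT pro-B libraries. Markers of other cells that a sort of this stage could hold also overlapped between genotypes. The 4 NK markers held 5, 4, 6 and 6 peaks in Mki67-/- and 5, 5, 4 and 3 in WT libraries, the 4 T markers 7 to 10 in Mki67-/- and 7 to 8 in WT, and the 5 myeloid markers 5 to 7 in both. The 4 erythroid and megakaryocyte markers held 4 to 5 in Mki67-/- and 4 in WT libraries, all of them at Klf1, and Gata1, Alas2 and Pf4 held none. The 3 stromal and endothelial markers held 9 to 10 in both genotypes, at Cdh5 and Col1a1, and Lepr held none. Of the myeloid markers, Ly6g and S100a8 held none of the 40000 strongest peaks, while S100a8 held 1 to 5 deposited peaks in Mki67-/- and 1 to 3 in WT libraries. In bulk libraries, a smaller share of cells with an open region and weaker opening in each cell cannot be told apart.

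The start of Mki67 was open in every library. The region over it, chr7:135715647-135717198, had a strength percentile of 87.3, 85.7, 90.2 and 88.5 in Mki67-/- and 85.2, 91.1, 85.7 and 87.1 in WT libraries, where 100 is the strongest region of a library. The genotypes overlapped (limma adjusted p = 0.977). Peaks within 10 kb of the gene numbered 6, 6, 7 and 4 in Mki67-/- and 7, 4, 6 and 5 in WT libraries. An open start does not check the genotype, since the position and kind of the Mki67 mutation are not given.

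Presence of a peak separated the genotypes at few regions. On the deposited lists, 54121 of the 106045 regions had a peak in all 8 libraries and 51924 varied. A peak in all 4 Mki67-/- and no WT library was seen at 39 regions, or 0.0368% of all, and a peak in all 4 WT and no Mki67-/- library at 227 regions, or 0.214%. On the lists of 40000 peaks, 30345 of 49850 regions had a peak in all 8 libraries. There, 47 regions were present in Mki67-/- libraries only, or 0.0943%, and 85 in WT libraries only, or 0.171%. With 4 against 4 libraries the exact permutation p of such a region is 0.0286, the smallest possible. Adjustment was over all 106045 and 49850 regions with a peak. No region passed (adjusted p = 1 on both lists, 266 and 132 regions at the p of 0.0286). The excess on the WT side was larger on the deposited lists. More WT than Mki67-/- libraries had a peak at 28920 regions and more Mki67-/- than WT libraries at 13880. On lists of equal length these numbers were 8313 and 7501. One library carried much of the difference: 6243 regions were missing from Mki67-/- replicate 4 alone on the deposited lists, against 132 to 601 for the other Mki67-/- libraries and 75 to 1178 for the WT libraries. On the lists of 40000 peaks, 855 were missing from that library alone. Without it, 163 regions were present in Mki67-/- libraries only and 242 in WT libraries only on the deposited lists. Such counts rise with any library left out, since fewer libraries must then share the pattern. Without Mki67-/- replicate 1 they were 158 and 374, so the rise is not particular to replicate 4. Without Mki67-/- replicate 4 and WT replicate 2, the library of lowest coverage in each genotype, the numbers were 222 and 831.

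**Figure D1:**
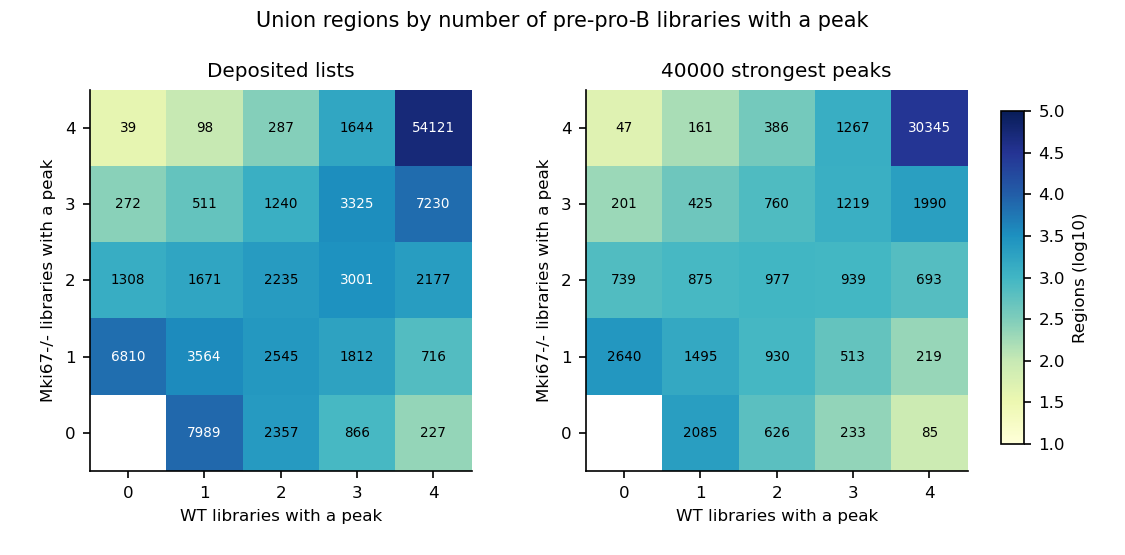
Union regions by how many of the 4 Mki67-/- libraries (vertical axis) and of the 4 WT libraries (horizontal axis) had a peak, on the deposited lists (left) and on the 40000 strongest peaks of each library (right); numbers and colour give the regions in each cell, colour on a log10 scale. Most regions sit in the cell of 4 and 4, and the corner cells hold 39 regions (4 Mki67-/- and 0 WT) and 227 regions (0 and 4) on the left, against 47 and 85 on the right.

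The strongest of the regions seen in Mki67-/- libraries only on the deposited lists was chr1:184885861-184886618, 2825 bp from the start of C130074G19Rik. It was among the strongest 25.3 to 37.2% of peaks in the 4 Mki67-/- libraries and was not listed at the other stages in either genotype. A region 8676 bp from the nearer end of Pwwp2b, which encodes a PWWP-domain chromatin protein, had a peak in 4 Mki67-/- and 0 WT libraries at each of the 3 stages. A region near Cd81, which encodes a tetraspanin of the cell surface, was present in 3 Mki67-/- and 0 WT small pre-B libraries and in no pro-B library.

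Regions seen in WT libraries only reached higher in the lists. The strongest, chr14:54350811-54351612 near Oxa1l, which encodes a mitochondrial inner-membrane insertase, was among the strongest 11.5 to 18.8% of WT peaks. It was listed in 0 Mki67-/- and 4 WT pro-B libraries and in 1 Mki67-/- and 4 WT small pre-B libraries. A region 107963 bp from Cdc42ep3, an effector of the GTPase Cdc42, was among the strongest 12.7 to 18.2% of WT peaks. One near Hnrnpll, chr17:79982103-79983354, was among the strongest 13.8 to 17.2% and was listed in all 8 libraries of both later stages. Hnrnpll encodes a regulator of CD45 splicing in lymphocytes. A region inside Lyrm7, which encodes a respiratory complex assembly factor, was listed in 0 Mki67-/- and 4 WT libraries at all 3 stages. At gene starts, the Sit1 promoter region was among the strongest 61.4 to 72.8% of Mki67-/- peaks and was absent from WT lists. Sit1 encodes an adaptor that restrains lymphocyte receptor signals. The Ptpre promoter region was among the strongest 61.5 to 82.1% of WT peaks and was absent from Mki67-/- lists. Ptpre encodes a receptor tyrosine phosphatase.

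For most regions present in 1 genotype, the later stages did not show the split. Of the 39 Mki67-/- regions on the deposited lists, more Mki67-/- than WT pro-B libraries had a peak at 8, more WT libraries at 1, and 30 were equal, with no peak in any pro-B library at 22. In small pre-B libraries the numbers were 10, 1 and 28, with no peak at 24. Among all 51924 regions that varied in pre-pro-B cells, more Mki67-/- pro-B libraries had a peak at 7.58% and more WT pro-B libraries at 9.96%. For small pre-B cells these shares were 6.56% and 12.5%. Of the 227 WT regions, more Mki67-/- pro-B libraries had a peak at 12 and more WT pro-B libraries at 27. In small pre-B libraries these were 9 and 21.

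Relative strength compared regions that were listed in every library. The 54121 regions with a deposited peak in all 8 libraries were ranked by -log10 q within each library, and the normal scores of the ranks were tested with limma. Strength was higher in Mki67-/- cells at 12 regions, or 0.0222% of those tested, and lower at 11, or 0.0203%. At an unadjusted p under 0.05 there were 3515 regions (6.49%), and the 2 genotypes did not overlap at 2077 (3.84%). An exact permutation test per region, limited to a smallest p of 0.0286, passed none.

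The region with the smallest p lay over the start of Adgrg5, an adhesion G protein-coupled receptor, at chr8:94923363-94924140. Its percentile was 74.5, 73.6, 78.5 and 59.8 in Mki67-/- libraries and 1.38, 2.38, 1.70 and 7.05 in WT libraries. All 4 Mki67-/- libraries thus ranked it in the upper part of their list, and WT libraries near the bottom (difference of 2.53 ± 0.219 SE in normal score, limma adjusted p = 2.24e-06). Both later stages also had a peak there in 4 Mki67-/- and 0 WT libraries. The start of Srp54c, a gene for the signal recognition particle subunit, lies next to near-identical copies, so that its reads are uncertain. The region over it, chr12:55230335-55230989, had percentiles of 71.0, 76.6, 76.8 and 67.2 in Mki67-/- and 42.9, 23.2, 43.4 and 33.8 in WT libraries (0.99 ± 0.137 SE, limma adjusted p = 0.00201).

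Sit1 and Cd69, genes of lymphocytes, had a stronger region in Mki67-/- cells that stood at the threshold. The region in Sit1, chr4:43481942-43482627, lay 1082 bp from the start and had percentiles of 61.1, 61.6, 72.3 and 65.0 in Mki67-/- and 42.1, 37.6, 42.2 and 31.8 in WT libraries. The region in Cd69, which encodes an early activation antigen that retains lymphocytes in tissue, lay inside the gene, 1142 bp from one of its ends. It had 69.5, 60.4, 72.0 and 70.7 in Mki67-/- and 46.3, 39.8, 43.0 and 46.5 in WT libraries. The genotypes did not overlap at either (limma adjusted p = 0.0496 for each). Each call was lost in 13 of 16 alternatives. Leaving out 1 library ended the Sit1 call for every library other than Mki67-/- replicate 1, and the Cd69 call for every library other than Mki67-/- replicate 2.

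Of the 12 stronger regions, 3 were nearest the start of Mgmt, a DNA repair enzyme that removes alkyl groups from guanine, and lay inside the gene. The first of them had percentiles of 72.6, 72.0, 67.2 and 68.5 in Mki67-/- and 15.8, 1.35, 9.10 and 9.04 in WT libraries (2.00 ± 0.216 SE, limma adjusted p = 7.83e-05). Another region, 388685 bp from Mgmt and inside no gene, was weaker, at 2.35, 11.2, 3.41 and 5.98 in Mki67-/- and 41.0, 39.4, 57.0 and 46.4 in WT libraries. Single regions of opposite direction thus lay around 1 gene. The other stronger regions lay in Slc36a2 (2 regions), an amino acid transporter, in Dmbt1, a scavenger protein of mucosa, in Cfap46 near Nkx6-2, and near Th, the enzyme that makes dihydroxyphenylalanine. Their limma adjusted p-values ran from 0.000492 to 0.0377, and the call near Th, the highest of these, was lost in 11 of 15 alternatives.

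Weaker regions lay in Ntm and Opcml, neighbouring genes for neuronal adhesion proteins. The Ntm region had percentiles of 9.08, 9.15, 36.1 and 14.3 in Mki67-/- and 71.0, 76.0, 64.3 and 63.4 in WT libraries (-1.51 ± 0.194 SE, limma adjusted p = 0.000816). The one in Opcml had 1.23, 0.886, 4.93 and 14.3 in Mki67-/- and 28.5, 69.9, 70.01 and 62.4 in WT libraries, and the groups did not overlap. The Hnrnpll region chr17:79975794-79976781 had 10.6, 12.1, 17.8 and 19.2 in Mki67-/- and 60.8, 61.0, 59.5 and 42.6 in WT libraries (-1.21 ± 0.184 SE, limma adjusted p = 0.00458). Other weaker regions lay in Lyrm7, Mark1 (nearest start C130074G19Rik), Agbl1 (2 regions) and over one end of Sdc2, the proteoglycan syndecan-2, and near Wdr11 and Mapk3. Mapk3 encodes the kinase ERK1, and its region was strong in both genotypes, at 59.9 to 69.4 in Mki67-/- and 81.9 to 88.3 in WT libraries. The calls in Agbl1 were each lost in 8 of 15 alternatives and that at Sdc2 in 7 of 15. Just outside the threshold stood a region in Ccdc69 (limma adjusted p = 0.0501).

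**Figure D2:**
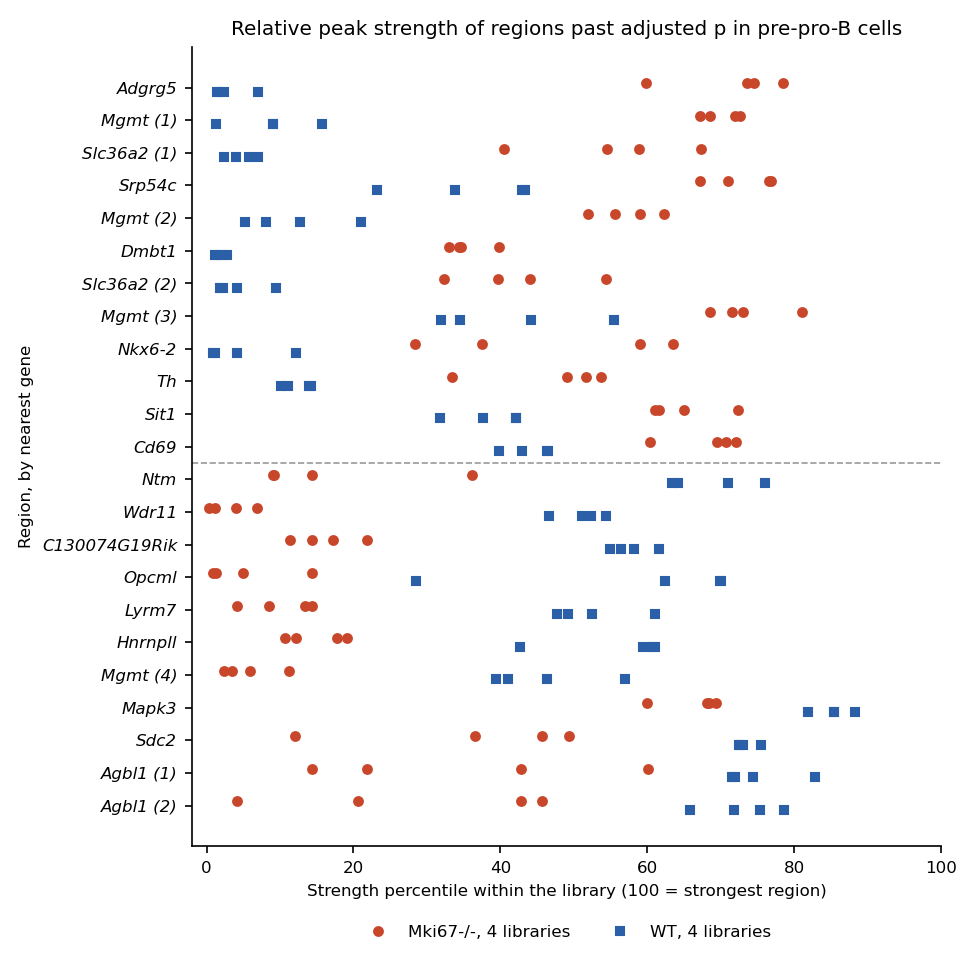
Strength percentile (100 is the strongest of 54121 regions) of the 23 regions past the adjusted p in each of 4 Mki67-/- libraries (circles) and 4 WT libraries (squares), named by nearest gene, with the regions stronger in Mki67-/- cells above the dashed line and the weaker ones under it. The genotypes do not overlap at any of them, and the gap is widest at Adgrg5, at 59.8 or more against 7.05 or less.

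These regions were unevenly placed. Of the 23, 11 were on chromosome 7, which held 6.24% of the tested regions, and 9 (39.1%) lay within 10 Mb of Mki67, where 1.20% of the tested regions lay. The share of regions with an unadjusted p under 0.05 fell off with distance from the Mki67 start. It was 21.4% of 56 regions within 2 Mb, 13.1% of 145 between 2 and 5 Mb and 9.38% of 448 between 5 and 10 Mb. Between 10 and 20 Mb it was 5.74% of 209 regions, and on other chromosomes 6.47% of 50744. Near Mki67 the differences went both ways, with 6 stronger and 3 weaker regions past the threshold within 10 Mb. In these groups the genotype at Mki67 and that of the DNA around it cannot be told apart. Presence showed the same placement, with 10 of 39 Mki67-/- regions (25.6%) and 16 of 227 WT regions (7.05%) within 10 Mb of Mki67, against 1.30% of the regions that varied. Outside those 10 Mb, 14 regions of relative strength passed. Among them, Slc36a2 and Lyrm7 lie within the same 2 Mb of chromosome 11, and Ntm and Opcml near each other on chromosome 9.

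**Figure D3:**
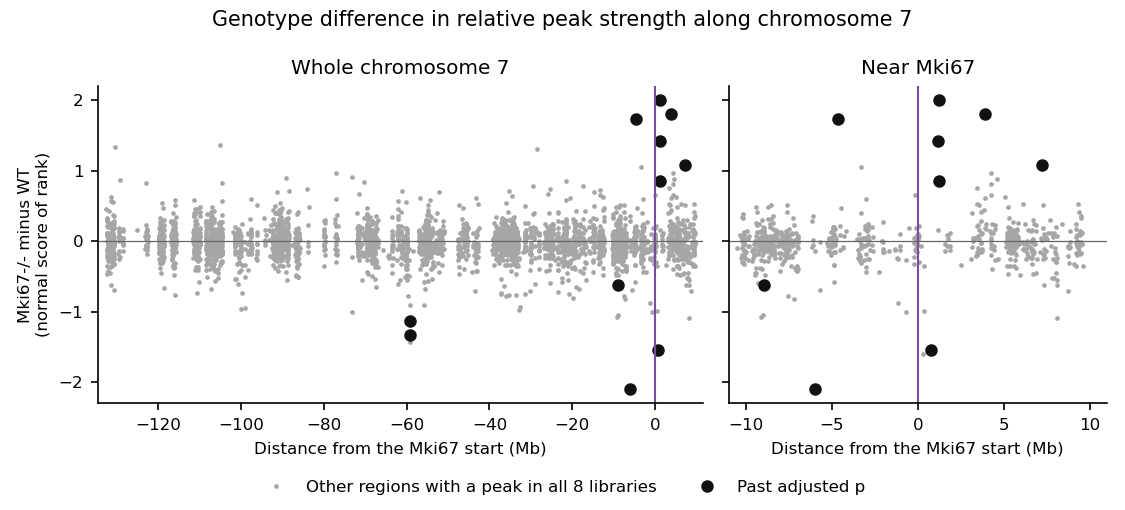
Difference of Mki67-/- minus WT in the normal score of the rank (vertical axis) against distance from the Mki67 start in Mb (horizontal axis) for all regions of chromosome 7 with a peak in all 8 libraries, over the whole chromosome (left) and within 11 Mb (right); black points passed the adjusted p. Of the 11 black points, 9 lie within 10 Mb of Mki67, 6 above 0 and 3 under 0.

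The same regions were then read at the later stages. For comparison across stages, each region was given its place among the 40000 strongest peaks of a library, from 100 for the first to 0 for a region outside them. Of the 23 regions, 10 differed in the same direction in pro-B cells, 0 in the opposite one and 13 were tied, against 29.2% of all tested regions in the same and 27.5% in the opposite direction. In small pre-B cells the numbers were 7, 2 and 14, against 31.3% and 26.9%, so that the share in the same direction was near that of all regions. The 13 and the 14 tied regions were outside the 40000 strongest peaks in every library of that stage. The score could not show a difference at them, in either direction. The genotypes did not overlap in that direction at 7 regions in pro-B cells, against 4.47% of all tested regions, and at 4 in small pre-B cells, against 4.07%. At the Srp54c start the genotypes were apart at each stage, with places of 58.7 to 67.1 in Mki67-/- and 29.8 to 42.6 in WT pro-B libraries, and 70.7 to 76.3 in Mki67-/- and 51.0 to 56.9 in WT small pre-B libraries. The Hnrnpll region also kept its direction, at 0 to 24.6 in Mki67-/- and 59.9 to 66.7 in WT pro-B libraries. The first Mgmt region was outside the 40000 strongest peaks in all 8 pro-B libraries, and in small pre-B cells it had 22.6, 64.0, 55.7 and 58.8 in Mki67-/- libraries and 0 in all WT libraries. The Slc36a2 and Lyrm7 regions were outside the 40000 strongest peaks at both later stages in all libraries.

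**Figure D4:**
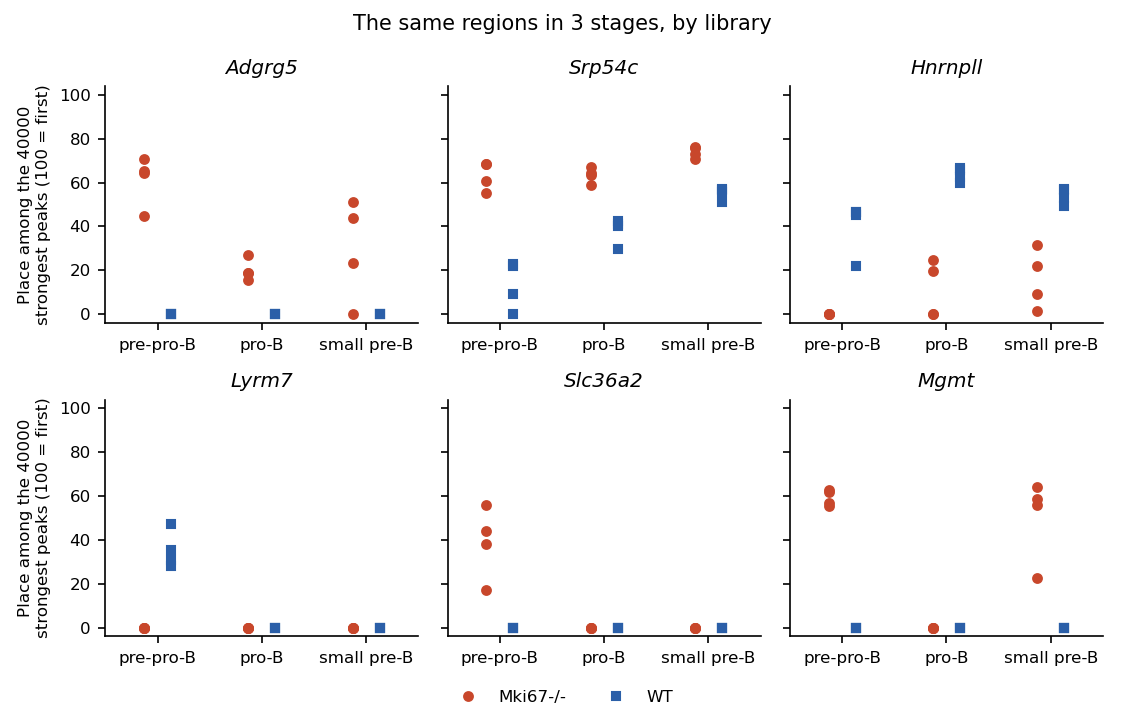
Place among the 40000 strongest peaks of a library (vertical axis, 100 for the first and 0 for a region outside them) at 6 of the 23 regions, by stage, each point a library, Mki67-/- as circles left of WT as squares. Srp54c and Hnrnpll differ at all 3 stages, Adgrg5 is 0 in every WT library, and Slc36a2 and Lyrm7 are 0 at both later stages.

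Whether the effect of genotype differed between stages was tested as an interaction, over 26804 regions with a peak in all 24 libraries. The effect of genotype differed from that in pro-B cells at 180 regions (0.672%) and from that in small pre-B cells at 448 regions (1.67%). The effect in pre-pro-B cells was higher at 139 and lower at 41 of the 180, and higher at 43 and lower at 405 of the 448. A genotype difference at either stage of a pair can give such a call. Only 6 of the 23 regions could be tested. The 23 had been picked by their difference in the same pre-pro-B libraries, so a pass here is not independent support. None passed against pro-B cells, and 2 passed against small pre-B cells. One was in Agbl1, chr7:76474085-76474955, with a difference of the effects of -1.25 (limma adjusted p = 0.00916), and the other was the Cd69 region, with 0.70 (limma adjusted p = 0.000294). Both were also apart by genotype, in the same direction, in pro-B cells. This Agbl1 region had places of 46.7 to 70.7 in Mki67-/- and 71.4 to 79.8 in WT pro-B libraries. The Cd69 region had 73.7 to 77.4 in Mki67-/- and 67.0 to 70.8 in WT pro-B libraries.

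Peaks were also counted per gene, within 10 kb on both sides. On the lists of 40000 peaks, the genotypes did not overlap at 90 genes (0.586% of 15365 tested), 32 with more peaks in Mki67-/- cells (0.208%) and 58 with fewer (0.377%). On the deposited lists there were 119 (0.702% of 16960), 31 with more (0.183%) and 88 with fewer (0.519%). No gene passed an exact permutation test after adjustment (90 and 119 genes at an unadjusted p of 0.0286). limma called 49 genes (0.319%) on the lists of 40000 peaks, 14 higher (0.0911%) and 35 lower (0.228%). On the deposited lists it called 26 (0.153%), 12 higher (0.0708%) and 14 lower (0.0825%). For 46 of the 49 on the first and all 26 on the second, all 4 libraries of a genotype had the same number of peaks. Such a gene has no spread from which to estimate an error, so these calls are given as counts and not as graded evidence.

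Among the genes with no spread, Mgmt held 4 of the 40000 strongest peaks in each Mki67-/- and 2 in each WT library. Klra7, an NK-cell receptor gene, held 1 in each Mki67-/- and 0 in each WT library. Axin2, a feedback inhibitor of Wnt signalling, held 2 in each Mki67-/- and 1 in each WT library, and Dusp5, a phosphatase of ERK, 3 and 2. On the deposited lists Klra7 overlapped, with 2, 2, 3 and 1 peaks in Mki67-/- and 2, 3, 2 and 1 in WT libraries. Mgmt and Axin2 overlapped there too, while Dusp5 held 5, 5, 9 and 5 in Mki67-/- and 4 in each WT library. Of genes with fewer peaks, 10 had 0 in each Mki67-/- and 1 in each WT library, at Akr1c13, Art4, Gnai1, Mab21l4, Mpped2, Nr5a2, Ntrk3, Pkia, Plpp4 and Thsd7a. A 0 here can hide weaker peaks, since the Art4 start had a deposited peak in 4 Mki67-/- libraries. Plpp4 held 0 deposited peaks in each Mki67-/- and 2 in each WT library. Hoxb7 and Hoxb8, homeobox genes active in progenitors, held 2 in each Mki67-/- and 3 in each WT library, and Hoxb9 held 1 and 2. Their windows overlap, so a single region can count at all 3, and these 3 were chosen after their values were seen. On the deposited lists the genotypes overlapped at all 3. In the deposited lists, the neighbouring histone genes H2ac24, H4bc24 and H4c18 held 2 peaks in each Mki67-/- and 1 in each WT library, again over shared sequence. Among genes called with a spread, Dmbt1 held 2, 1, 2 and 2 peaks in Mki67-/- and 0 in all WT libraries (limma adjusted p = 0.0121). St8sia2 held 0 in all Mki67-/- and 1, 1, 2 and 1 in WT libraries (limma adjusted p = 0.0451). The Dmbt1 call was lost in 6 of 11 alternatives and the St8sia2 call in 10 of 11. St8sia2 overlapped on the deposited lists, at 1, 2, 1 and 1 in Mki67-/- and 2, 4, 4 and 3 in WT libraries.

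Ebf1 and Pax5, the transcription factors that set B-cell identity, overlapped between genotypes, with 6, 7, 4 and 3 peaks in Mki67-/- and 5, 6, 4 and 4 in WT libraries at Ebf1, and 7, 7, 6 and 6 in Mki67-/- and 8, 7, 8 and 7 in WT libraries at Pax5.

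**Figure D5:**
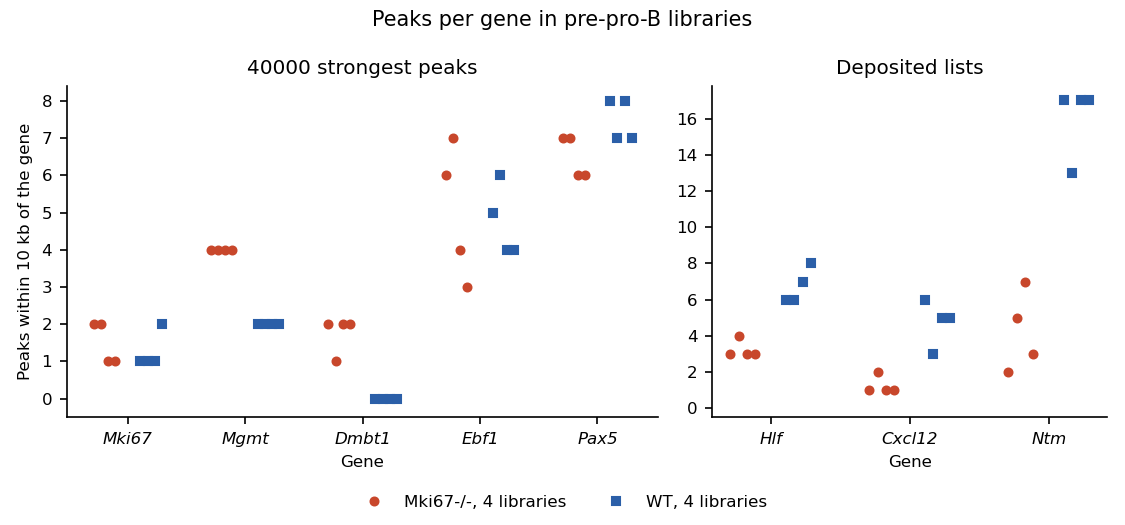
Peaks within 10 kb of a gene (vertical axis) among the 40000 strongest (left) and on the deposited lists (right), each point a library, Mki67-/- as circles left of WT as squares. Mgmt and Dmbt1 separate on the left while Mki67, Ebf1 and Pax5 overlap, and on the right Hlf, Cxcl12 and Ntm separate.

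Larger genes with a spread are named here for the size of their difference, after their values were seen, and none passed after adjustment. Of all genes tested on the deposited lists, 47.6% were lower and 27.3% higher in Mki67-/- cells. Ntm held 2, 5, 7 and 3 deposited peaks in Mki67-/- and 17, 13, 17 and 17 in WT libraries (limma adjusted p = 0.318). Auts2, a regulator of Polycomb complexes, held 4, 6, 7 and 6 of the 40000 strongest peaks in Mki67-/- and 11, 13, 10 and 10 in WT libraries (limma adjusted p = 0.416). Hlf, a transcription factor of haematopoietic stem cells, held 3, 4, 3 and 3 deposited peaks in Mki67-/- and 6, 6, 7 and 8 in WT libraries (limma adjusted p = 0.0958). Among the 40000 strongest peaks Hlf held 1, 1, 1 and 0 in Mki67-/- and 2, 1, 2 and 2 in WT libraries, which overlapped. Cxcl12, the chemokine that holds progenitors in marrow, held 1, 2, 1 and 1 deposited peaks in Mki67-/- and 6, 3, 5 and 5 in WT libraries (limma adjusted p = 0.249). Pim1, a kinase gene induced by cytokine signals through Stat5, held 7, 6, 6 and 6 deposited peaks in Mki67-/- and 4, 5, 5 and 4 in WT libraries (limma adjusted p = 0.759).

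Gene lists for the cell type and for the functions of Ki-67 showed almost no calls. Of all genes tested, limma called 0.319% on the lists of 40000 peaks and 0.153% on the deposited lists. At these shares, few or no calls in a list of this size are not particular to its members. Over all 16 lists, at most 1 member passed on either kind of list, and none was higher in Mki67-/- cells. The early B-lineage genes together held 103, 100, 99 and 103 of the 40000 strongest peaks in Mki67-/- and 100, 107, 97 and 97 in WT libraries, which overlapped. The median log2 difference of the 22 tested was 0.01, and that of all genes tested was 0.00. Genes of V(D)J recombination and end joining had 0 of 16 past the test, with sums of 37, 37, 37 and 38 peaks in Mki67-/- and 38, 36, 37 and 37 in WT libraries. None of 20 mitosis and kinetochore genes, 20 replication genes or 26 heterochromatin and chromatin architecture genes passed on either list. The last held 57, 54, 56 and 60 peaks in Mki67-/- and 54, 54, 56 and 55 in WT libraries.

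The 17 stem and multipotent progenitor genes tested on the lists of 40000 peaks had 0 past the test, and 3 were higher, 9 lower and 5 equal in the mean. Of all genes tested there, 0.319% were called, 25.8% were higher and 25.2% lower. Together, members of the list held 52, 53, 52 and 52 peaks in Mki67-/- and 56, 59, 58 and 58 in WT libraries, which did not overlap. The sums of every other list overlapped on both kinds of list, so this sum is the one that stood out of many looked at. No test is given for it, and the median log2 difference of the members was -0.07. In the deposited lists the sums overlapped, at 110, 118, 113 and 103 in Mki67-/- and 123, 103, 124 and 124 in WT libraries. Meis1, a homeobox gene of stem cells, held 9, 9, 8 and 8 of the 40000 strongest peaks in Mki67-/- and 10 in each WT library (limma adjusted p = 0.506). Its mean was 5.5 in Mki67-/- and 7 in WT pro-B libraries and 2.5 in Mki67-/- and 4 in WT small pre-B libraries.

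The antigen receptor loci, whose rearrangement the study's title names, gave no difference past the test at this stage. Igh, the heavy-chain locus, held 118, 118, 133 and 102 deposited peaks in Mki67-/- and 125, 121, 128 and 131 in WT libraries (exact permutation p = 0.257, adjusted over 6 loci 0.657). Mki67-/- replicate 4 was the lowest. Among the 40000 strongest peaks Igh held 39, 38, 44 and 32 in Mki67-/- and 32, 45, 30 and 34 in WT libraries (exact permutation p = 0.543). Of 120 Igh V segments, 57, 58, 63 and 50 in Mki67-/- and 62, 58, 62 and 64 in WT libraries had a deposited peak within 500 bp (exact permutation p = 0.257, adjusted over 4 measures 0.571). Igk, the kappa locus, held 35, 38, 24 and 25 deposited peaks in Mki67-/- and 38, 34, 33 and 33 in WT libraries (exact permutation p = 0.4). The T-cell receptor locus Tcra/Tcrd held 36, 37, 38 and 31 of the 40000 strongest peaks in Mki67-/- and 35, 27, 30 and 32 in WT libraries, the lowest p among the loci (exact permutation p = 0.114, adjusted p = 0.686). A p that misses the threshold with 4 libraries a group does not show that the loci are alike.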

How the data were processed

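ATAC-seq peak lists of 8 pre-pro-B libraries were analysed, 4 Mki67-/- and 4 WT, with 16 libraries of later stages for comparison. Per the submitters' processing notes, the authors used Trimmomatic and MACS2 on mm10, and name deepTools, DiffBind and DESeq2. Versions are not given in the sources used here. Per the labels, each list holds the authors' peaks of 1 library. The deposited score is a whole number, 10 times the deposited -log10 q. The fold enrichment that the authors deposited is a ratio, summit over local background. The deposited -log10 p and -log10 q refer to the same summit, and the lowest -log10 q was 2 in each list. Since these values come from separate calls, they were used only within a list. The 8 lists held 123551 to 206148 entries. Read totals were not used here, so no counting interval is given.

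Overlapping entries were merged on chromosomes 1 to 19 and X, giving 67920 to 88946 peaks. Coverage, solved from both values at 3000 summits per library, ran from 1.86 to 5.30. Genes were the 21631 coding genes of RefSeq on GRCm38.p6. A region was named by the nearest start, known for 17274 of them, and by both gene ends for the rest. Of 283 list entries, 279 matched a gene. Peaks per gene were tested as log2(peaks + 1), for genes with a peak in at least 4 libraries. Single values had a two-sided exact permutation test (70 arrangements), and tests across features used limma 3.58.1 in R 4.3.3 with adjustment by Benjamini and Hochberg over all features and a threshold of 0.05. Both were checked on simulated data. The simulated counts per gene were drawn with a spread within a genotype, so that check does not cover gene calls with no spread. Named items were Mki67, the 6 receptor loci, the 10 genes of smallest p per direction and list, members of gene lists past the test, up to 12 regions of smallest p per direction for strength and, for presence, the 10 strongest regions per direction and list. Other genes, such as Meis1, St8sia2, Ptpre and those with the largest differences, were chosen after their values were seen. One gene's result is not reported here. Members, gene lists and tests were chosen with earlier results of these data known. Leaving out both libraries of lowest coverage, and genes with no spread, were alternatives chosen after seeing the data.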

Additional observations from a re-analysis of the deposited data

Results flagged for a closer look

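Among 92 groups of 4 libraries checked for a library far from the others, 6 were singled out, by the gap to the nearest library as a share of the group's range. Chance gives about 1 in 20 groups for values without ties. Small counts pass more readily: where all other libraries tie, any difference gives a gap of 1, as at Igl and the Igk V segments. The median peak width of WT replicate 2 was 446 bp against 543 to 552 bp in the other WT libraries, a gap of 0.915 of the range. Igl, the lambda light-chain locus, held 10 deposited peaks in WT replicate 2 and 13 in the other WT libraries, a gap of 1. It held 6 of the 40000 strongest peaks in WT replicate 4 and 7 in the other WT libraries, again a gap of 1. Of the Igk V segments, 12 had a deposited peak in WT replicate 4 and 13 in each of the other WT libraries, a gap of 1. The Hnrnpll region had a percentile of 42.6 in WT replicate 4 and 59.5 to 61.0 in the other WT libraries, a gap of 0.916. The Mapk3 region had 59.9 in Mki67-/- replicate 4 and 68.2 to 69.4 in the other Mki67-/- libraries, a gap of 0.867. WT replicate 2 and Mki67-/- replicate 4 had the lowest coverage of their genotypes, and its part in these values was not tested.

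Of the 6 regions of relative strength that could be tested for it, 2 had a genotype effect that differed from that in small pre-B cells. Over all 26804 regions tested, 448 (1.67%) differed from small pre-B and 180 (0.672%) from pro-B cells. The 2 regions had been picked by their difference in the same pre-pro-B libraries. The Agbl1 region that starts at 76474085 had an effect lower in pre-pro-B than in small pre-B cells by -1.25 in normal score. The Cd69 region had an effect higher in pre-pro-B than in small pre-B cells by 0.70.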

How the results depend on the processing

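The 23 regions of relative strength kept their direction in all alternatives run, and 254 of 349 values stayed past the threshold. Of the 23, 10 passed in every alternative other than the exact test and the restriction to regions among the 40000 strongest peaks of all 8 libraries, which left 4 of the 23 to test and called 0 higher and 0 lower. With ranks by fold enrichment 12 of the 23 passed, and with coverage as a covariate 15. The exact permutation test called 0. Calls of lower strength numbered 19 with sex read from chromosome Y as a covariate and 20 with a peak in at least 6 of 8 libraries. Leaving out 1 library gave 8 to 22 higher and 6 to 25 lower regions, with 22 without WT replicate 2, 25 without Mki67-/- replicate 1, 23 without Mki67-/- replicate 4 and 6 without WT replicate 3.

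Deviations of same-numbered libraries correlated at 0.184, -0.233, -0.0973 and 0.040, which gave no pairing of single libraries. The numbers did match in chromosome Y peaks, low at replicates 1 and 2 and high at replicates 3 and 4 in both genotypes. With the number as a replicate block, 18 regions were called lower and 20 of the 23 stayed past the threshold.

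Counts of regions present in 1 genotype rose with any 1 library left out, since fewer libraries must then share the pattern. Without 1 library the deposited lists gave 51 to 163 Mki67-/- and 242 to 787 WT regions. Mki67-/- regions numbered 158 and 163 without Mki67-/- replicates 1 and 4, 63 without WT replicate 1 or 2 and 74 without WT replicate 4. WT regions numbered 374, 550 and 458 without Mki67-/- replicates 1, 2 and 3, and 787 without WT replicate 2. Without both libraries of lowest coverage there were 222 and 831, and 187 and 234 on the 40000 strongest peaks. On the 20000 strongest peaks there were 23 and 32, at a -log10 q of at least 10 there were 23 Mki67-/- regions, and with a minimum cover of 0.5 of the region there were 346 WT regions. Leaving out 1 library gave 68 to 119 and 115 to 176 on the 40000 strongest peaks, with 119 and 172 without WT replicate 2 and 112 and 176 without Mki67-/- replicate 1.

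For peaks per gene on the 40000 strongest peaks, leaving out 1 library gave 22 to 37 higher and 37 to 62 lower genes (37 higher without WT replicate 2, 62 lower without Mki67-/- replicate 2), and leaving out both libraries of lowest coverage gave 62 and 86. Windows of 50 kb gave 14 lower and the 20000 strongest peaks 13 lower. Without genes of no spread, 1 was higher and 2 lower. On the deposited lists the ranges without 1 library were 16 to 37 and 14 to 43 (37 higher without Mki67-/- replicate 4, 43 lower without Mki67-/- replicate 2), with 69 and 94 without both, 3 and 5 with windows of 50 kb, and 0 and 0 without genes of no spread. Exact tests gave 0 throughout. With fewer libraries, more genes have equal counts within a genotype.

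Of the differences that changed sign, Axin2 and Bnip1 were limma calls with no spread within a genotype, and the others were not past a threshold. Without 1 library, the Mki67-/- minus WT difference ran from -6679.8 to 17.25 merged peaks, -0.00896 to 0.311 percentage points in gene bodies, -0.0585 to 0.197 between genes, -4.58 to 0.75 deposited Tcrb peaks, -0.667 to 0.333 Tcrg peaks among the 40000 strongest and -0.5 to 1.33 Igk V segments among the 40000 strongest. Tcrg also turned without both libraries of lowest coverage (0.333), Igl on the 20000 strongest peaks (-0.5), Axin2 on the 20000 strongest peaks (-0.25) and Bnip1 with windows of 50 kb (-0.0176). The cause was not tested. Depth limits these lists to peaks that passed a q of 0.01, so an absent peak is one not listed.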

Other observations

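A few stretches of the genome held many regions of unequal strength, one of them in the surroundings of Mki67. In 842 windows of 2 Mb with at least 20 tested regions, the median share with an unadjusted limma p under 0.05 was 6.05%. The highest share, 39.1% of 23 regions, was on chromosome 5 between 130 and 132 Mb, which holds part of the long gene Auts2. There, 2 regions were stronger and 7 weaker in Mki67-/- than in WT cells. On chromosome 7 between 138 and 140 Mb, 25.5% of 47 regions were past that p, and all 12 were stronger in Mki67-/- cells. This window lies within 10 Mb of Mki67. On chromosome 17 between 78 and 80 Mb, near Hnrnpll and Cdc42ep3, the share was 23.5% of 51, with 4 stronger and 8 weaker. On chromosome 11 between 54 and 56 Mb, around Slc36a2 and Lyrm7, it was 22.8% of 92, with 7 stronger and 14 weaker. On chromosome 6 between 140 and 142 Mb it was 25.9% of 27, with 4 stronger and 3 weaker. These windows were picked by their share, so no test is given.

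The share of the 40000 strongest peaks on each chromosome differed little. Chromosome 10 held 5.30 ± 0.0561% in Mki67-/- and 5.19 ± 0.0386% in WT libraries, and chromosome 13 held 4.60 ± 0.0154% in Mki67-/- and 4.54 ± 0.0516% in WT libraries (SD, n = 4 each). Neither pair of groups overlapped, and neither passed over 20 chromosomes (exact permutation p = 0.0286, adjusted p = 0.229 for each).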
